A study of Rattus norvegicus with 21 samples.

Results

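The genes of oxidative phosphorylation, the mitochondrial machinery that turns the energy of NADH and succinate into ATP, were followed through an FGF1 time course in rat bladder carcinoma cells. They were taken from the array's annotation as the probe sets whose single gene symbol starts with Nduf, Uqcr, Atp5 or Cox followed by 4 to 8, or is Sdha, Sdhb, Sdhc, Sdhd or Cyc1. Where a gene had several probe sets, the one with the highest mean over all arrays stood for it. This gave 85 genes with 90 probe sets, of 10411 genes with a single symbol and 15866 probe sets tested. Of the 85 genes, 36 carry names of complex I, 4 of complex II, 8 of complex III, 15 of complex IV and 15 of complex V. The symbols also brought in 5 complex I assembly factors (Ndufaf3, Ndufaf4, Ndufaf5, Ndufaf7 and Ndufaf8), the ATP synthase inhibitor Atp5if1 and 1 pseudogene, Cox6c-ps1. Ndufa4 and its relative Ndufa4l2 are counted under complex I by name, although the Ndufa4 protein is now placed in complex IV. Another 7 probe sets, of Atp5mc1, Atp5mc2, Cox5a, Cox7a2, Uqcrb, Ndufs5 and Ndufa10, carry a second symbol and were left out by the rule.

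Complexes I and II pass electrons from NADH and succinate to ubiquinone, complex III passes them to cytochrome c, and complex IV, cytochrome c oxidase, passes them to oxygen. The proton gradient built on the way drives complex V, the ATP synthase. Each complex has a small catalytic core, surrounded by accessory subunits in all but complex II, and complexes I, III, IV and V also hold subunits encoded in mitochondrial DNA, which the rule does not cover. Assembly factors help to build a complex without remaining in it, and complex IV has tissue isoforms of several subunits, among them forms of heart and skeletal muscle.

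NBTII is an epithelial cell line from a rat bladder carcinoma, and NBTII-FGFR1 is the same line transfected with FGF receptor 1. Both were treated with FGF1 at 20 ng/ml together with heparin for 0, 0.5, 2, 6, 24 or 48 h, and total RNA was read on 21 Affymetrix arrays. Of the 12 groups of line and time, 9 held 2 arrays, and 3 held 1 array (NBTII at 0 h and each line at 0.5 h). Time, heparin and handling cannot be told apart from FGF1, since no array after 0 h lacks it, and nothing in the labels ties replicates to separate cultures. The p-values therefore measure the spread of these arrays alone, and that spread may be technical. Values are log2 signals of the deposited RMA table and differences are log2 differences ± SE of 1 limma fit over all arrays. "Called" means an adjusted p under 0.05 (Benjamini-Hochberg, over the 15866 probe sets), and genes are said to have risen or fallen when called. The number of arrays limits the precision.

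Array medians lay between 6.13 and 6.21. Of 9 epithelial and urothelial markers measured, 8 had a mean above the lower quartile of all probe-set means (4.45), and Krt19 lay below that quartile. The E-cadherin gene Cdh1 read 7.75 to 10.2. Above the quartile lay 0 of 3 endothelial markers and 3 of 7 leukocyte markers. These 3 were Cd14 (7.29 to 8.55), Cd68 (5.19 to 6.68) and Cd4 (5.14 to 5.63), whereas Ptprc, the pan-leukocyte marker, read at most 3.80. The transfected gene, Fgfr1, read 3.58 to 4.05 in the 10 NBTII arrays and 4.56 to 7.58 in 10 of the NBTII-FGFR1 arrays, but 3.57 in replicate 1 of the pair labelled NBTII-FGFR1 0 h, so that every NBTII-FGFR1 difference from 0 h rests on 1 library that goes against its label. The bacterial poly-A spikes averaged 6.13 to 6.64 at 0 h (3 arrays) and 5.33 to 5.72 at later times (18 arrays), and their part in the differences from 0 h was not tested. A second library, NBTII-FGFR1 2 h replicate 1, stood apart in the very genes described here. It was the lowest of all arrays for 63 of the 85 genes, against 12.6% of all probe sets, and their median deviation from the gene means was -0.67 in it, against -0.21 to 0.28 in the other 20 arrays. Values without these libraries are given where they matter.

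**Figure D1:**
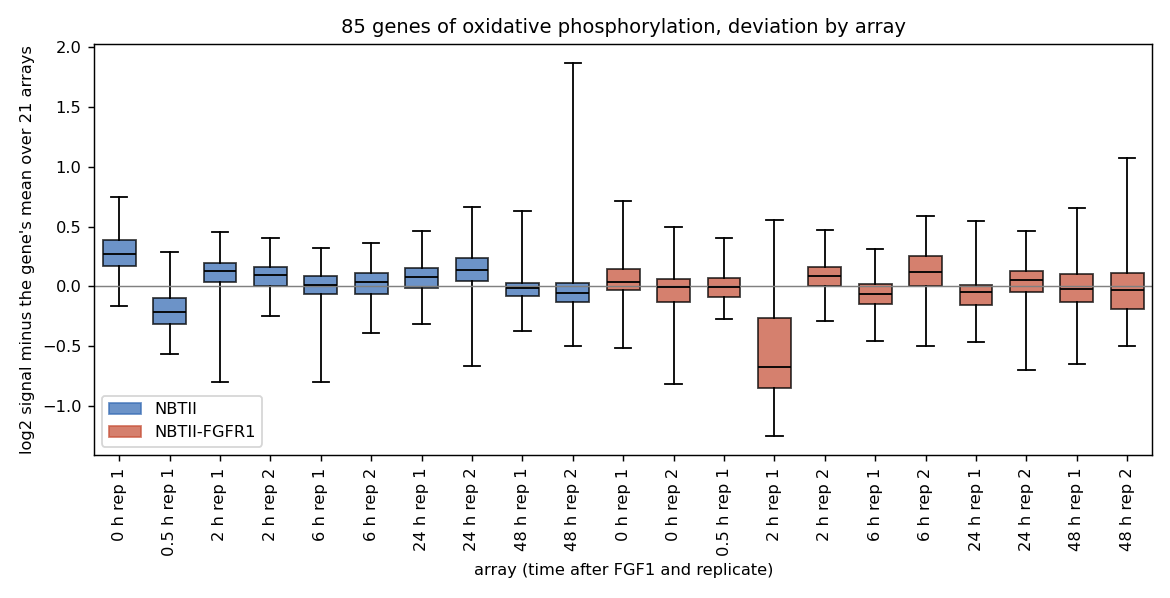
Log2 signal of each of the 85 genes minus its own mean over 21 arrays, 1 box per array (line, median; box, quartiles; whiskers, lowest and highest gene), NBTII in blue and NBTII-FGFR1 in red. The box of NBTII-FGFR1 2 h replicate 1 lies below all others with a median of -0.67, and the long upper whisker of NBTII 48 h replicate 2 ends at Cox6a2.

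Promoter sequence is shown for 3 of the genes described below: Cox6a2, the muscle isoform of a complex IV subunit, Ndufaf4, a complex I assembly factor, and Sdhb, the iron-sulfur subunit of complex II. They are the 250 bases before the RefSeq start site on GRCr8, read 5′ to 3′ along the gene. Capitals mark matches to any of 6 motifs searched on both strands: GCGCATGCG (NRF-1), CCGGAAG (ETS factors such as GABPA), TAAAAATAG (MEF2), CAGCTG (an E-box), AAGATGGC (YY1) and TGACGTCA (CRE). The motifs were chosen with some of these sequences in view.

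Cox6a2: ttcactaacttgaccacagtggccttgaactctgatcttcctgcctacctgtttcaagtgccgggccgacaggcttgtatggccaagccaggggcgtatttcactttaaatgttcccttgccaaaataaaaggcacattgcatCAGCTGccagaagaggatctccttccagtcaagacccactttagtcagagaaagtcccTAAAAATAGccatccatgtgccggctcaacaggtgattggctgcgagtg
Ndufaf4: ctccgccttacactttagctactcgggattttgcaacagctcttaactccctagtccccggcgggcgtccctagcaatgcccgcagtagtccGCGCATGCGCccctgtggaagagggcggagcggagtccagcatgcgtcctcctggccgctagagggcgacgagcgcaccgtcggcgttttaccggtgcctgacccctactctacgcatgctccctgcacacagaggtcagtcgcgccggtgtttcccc
Sdhb: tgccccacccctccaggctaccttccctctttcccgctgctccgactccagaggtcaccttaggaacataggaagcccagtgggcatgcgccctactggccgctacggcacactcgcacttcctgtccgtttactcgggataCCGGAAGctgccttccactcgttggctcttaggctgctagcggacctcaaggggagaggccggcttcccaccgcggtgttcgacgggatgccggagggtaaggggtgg

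The Cox6a2 window is chr1:192219717-192219966 on the minus strand, that of Ndufaf4 chr5:43401545-43401794 and that of Sdhb chr5:158547684-158547933, both on the plus strand. The Cox6a2 window held the E-box from base -107 and the MEF2 letters from base -49, counted from the start site. The Ndufaf4 window held the NRF-1 letters from base -158, overlapping on both strands, and the Sdhb window the ETS letters from base -108. Of the 76 genes with a RefSeq promoter entry, 20 (26.3%) held the ETS letters, among them Sdhb, Sdhd, Ndufs1, Uqcrc2 and Atp5f1a, against 7.27% of all 33469 promoters of that length. The NRF-1 letters stood in 7 (9.21%) against 1.35%, namely in Ndufaf4, Ndufaf5, Ndufa11, Uqcrc1, Atp5mg, Atp5po and Atp5me. The MEF2 letters stood in Cox6a2 alone of the 76 (1.32% against 0.463%). The E-box stood in 8 (10.5% against 12%), and the YY1 and CRE letters in 2 genes each (2.63%, against 1.63% and 1.59%). A match is a run of letters and not a shown binding site.

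How far these genes ranged depends on 1 library. Over all 21 arrays the distance between the lowest and the highest array had a median of 1.05 over the 85 genes, against 0.75 over all probe sets, and it was under 1 in 39 of the 85. Over the 20 arrays without NBTII-FGFR1 2 h replicate 1 the median was 0.67, against 0.72 over all probe sets. The distance was then under 1 in 77 of the 85, against 71.27% of all probe sets. That array was singled out by its values in these same genes. Their smaller range without it follows from this choice and does not show that they were steadier than other genes. The beta subunit of the ATP synthase, Atp5f1b, which holds the catalytic sites, had the smallest distance of the 85 (0.32). It read 12.3 in its lowest and 12.6 in its highest of all 21 arrays. The 8 genes with a distance of 1 or more over those 20 arrays were Cox6a2 (2.67), the assembly factors Ndufaf4 (1.51), Ndufaf7 (1.20) and Ndufaf8 (1.19), the complex I subunits Ndufa2 (1.18) and Ndufc2 (1.14), Sdhd (1.10) and Atp5if1 (1.05). Of the tissue isoforms, Cox6b2 (testis) and Cox8b (muscle) had means of 3.71 and 3.96, below the lower quartile, and were not shown to exceed background. Cox7a1, another muscle isoform, read 5.35 to 5.70 and Cox4i2, the lung isoform, 4.57 to 4.98, and neither was called in any of the 18 comparisons made.

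Over these 18 comparisons there were 39 calls among 22 of the 85 genes, and 63 genes had none. The 39 are 2.55% of the 1530 tests of these genes, against 7.75% of the tests of all probe sets. The comparisons share arrays, so these tests are not independent. The SE of these genes, and with it their share, also depended on NBTII-FGFR1 2 h replicate 1, as given below. Of the assembly factors, Ndufaf4 and Ndufaf7 had 4 calls each, in comparisons that share arrays, Ndufaf3 had 1, and Ndufaf5 and Ndufaf8 had none. When 1 array was left out at a time, 4 of the 39 calls held in all 18 such fits: Cox6a2 and Ndufa4l2 higher, and Ndufaf4 and Sdhd lower, each in NBTII-FGFR1 at 48 h against 0 h.

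At 48 h of FGF1 in NBTII-FGFR1 cells, 5 of the 85 genes were higher and 5 lower than at 0 h. This is 11.8%, against 21.4% of all probe sets called in that comparison. The median difference of the 85 was -0.06 and that of all probe sets -0.035. By complex, 1 gene was higher and 0 lower of the 36 of complex I, 1 and 1 of the 4 of complex II, 0 and 0 of the 8 of complex III, 2 and 0 of the 15 of complex IV, and 0 and 3 of the 15 of complex V. The complex I gene was Ndufa4l2, which is counted there by its name alone. For 80 of the 85 genes the 95% interval of the difference stayed within a log2 change of 1 either way. Epithelial markers moved in the same comparison: 5 of the 9 were lower and 0 higher, with a median of -0.86, and their part in the results was not tested.

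Cox6a2, whose protein replaces Cox6a1 in complex IV of heart and skeletal muscle, had the largest change among them. In NBTII-FGFR1 it read 5.26 and 4.96 at 0 h, 5.51 at 0.5 h, 5.07 and 5.69 at 2 h, 5.68 and 5.67 at 6 h, 5.31 and 5.08 at 24 h, and 6.42 and 6.84 at 48 h. Both arrays of 48 h lay above all earlier ones. It rose by 1.52 ± 0.31 from 0 h, 2.87-fold (adjusted p = 0.00274), and by 1.44 ± 0.31 from 24 h (adjusted p = 0.00977). The second call was lost without either array of 24 h or without 48 h replicate 2 (adjusted p up to 0.0986, differences from 1.23 to 1.65).

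In NBTII cells Cox6a2 read 6.18 at 0 h, 5.56 at 0.5 h, 5.94 and 5.75 at 2 h, 5.74 and 5.67 at 6 h, 5.74 and 5.11 at 24 h, and 6.40 and 7.64 at 48 h. Again both arrays of 48 h were above the rest, but they lay far apart, and the 0 h array was the highest before them. The difference from 24 h was 1.59 ± 0.31 and missed the threshold (adjusted p = 0.0666). With 1 array left out at a time it ran from 0.97 to 2.21, and it was called without NBTII-FGFR1 2 h replicate 1 (adjusted p = 0.0431). Over both lines together, a contrast added after the values had been seen, Cox6a2 rose by 1.52 ± 0.22 from 24 to 48 h (adjusted p = 0.000664), where 11.4% of all probe sets were called. The change did not differ detectably between the lines (-0.15 ± 0.44, NBTII-FGFR1 minus NBTII, adjusted p = 0.974). The 8 fibroblast and muscle markers averaged 4.50 to 4.84 at 48 h (4 arrays) and 4.49 to 4.82 at other times (17 arrays), with means above the lower quartile in 3 of the 8 (Acta2, Des and Col1a1) and below it in 5, the muscle creatine kinase Ckm and the cardiac myosin Myh6 among them.

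The ubiquitous form of the same subunit, Cox6a1, read 11.1 in both arrays of NBTII-FGFR1 at 0 h and 11.6 in both at 48 h, a difference of 0.46 ± 0.21 that was not called (adjusted p = 0.151). Without NBTII-FGFR1 2 h replicate 1, where it read 10.5, the same difference had an SE of 0.10 and was called (adjusted p = 0.00292).

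Also of complex IV by name, Cox7a2l links complexes III and IV into supercomplexes. It read 10.9 and 11.3 in NBTII-FGFR1 at 0 h and 11.8 and 11.7 at 48 h, and rose by 0.63 ± 0.14 (adjusted p = 0.00449). The lower of the 0 h values belongs to the library that goes against its label, and without it the difference was 0.44. The call then depended on whether NBTII-FGFR1 2 h replicate 1 was also left out. In NBTII the arrays lay between 10.98 and 11.34, with -0.10 ± 0.17 from 0 to 48 h. The difference between the lines' changes was 0.73 ± 0.22 (adjusted p = 0.117).

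Ndufa4l2, a relative of Ndufa4 known as a target of the hypoxia response, was low but moved with time in NBTII-FGFR1. It read 4.89 and 4.77 at 0 h, 5.37 and 5.42 at 6 h, 5.13 and 5.22 at 24 h, and 5.49 and 5.55 at 48 h. It rose by 0.70 ± 0.16 at 48 h (adjusted p = 0.00453), by 0.57 ± 0.16 at 6 h (adjusted p = 0.0166) and by 0.53 ± 0.16 at 2 h (adjusted p = 0.0455). The 6 h call was lost without any one of the 4 arrays compared (adjusted p up to 0.104), and the 2 h call in 13 of the 18 fits.

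Complex II, succinate dehydrogenase, has 4 subunits, and 2 of them moved in opposite directions. Sdhd, the small membrane anchor, read 10.45 and 10.47 in NBTII-FGFR1 at 0 h, 10.15 and 10.47 at 6 h, 10.32 and 10.34 at 24 h, and 9.68 and 9.82 at 48 h. The 2 arrays of 48 h were the lowest of all 21. Sdhd fell by 0.71 ± 0.13 from 0 h, 1.63-fold (adjusted p = 0.00149), and by 0.58 ± 0.13 from 24 h (adjusted p = 0.0136). The second call was lost without either array of 24 h or without 48 h replicate 1 (adjusted p up to 0.156). In NBTII, Sdhd read 10.78 at 0 h, 10.20 and 10.33 at 24 h, and 10.32 and 10.195 at 48 h, with -0.52 ± 0.16 from 0 to 48 h (adjusted p = 0.17). The lines' changes from 0 to 48 h differed by -0.18 ± 0.21 (adjusted p = 0.771). A second Sdhd probe set differed by -0.36 ± 0.15 from 0 h and was not called (adjusted p = 0.103).

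Sdhb, the iron-sulfur subunit whose promoter is printed above, read 10.24 and 10.07 at 0 h and 10.58 and 10.47 at 48 h in NBTII-FGFR1. The arrays did not overlap, and it rose by 0.37 ± 0.12 (adjusted p = 0.043). This call was lost in 8 of the 18 fits: without any one of the 4 arrays compared, or of the NBTII arrays of 6 h and 48 h (adjusted p up to 0.262). Sdhc, the large anchor, and Sdha, the flavoprotein, differed by -0.27 ± 0.17 and -0.25 ± 0.10 and were not called.

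In complex V, 3 genes fell at 48 h in NBTII-FGFR1. Atp5f1c, the gamma subunit that forms the rotor shaft, read 11.65 and 11.53 at 0 h and 11.13 and 11.07 at 48 h, and fell by 0.50 ± 0.11 (adjusted p = 0.00557). Without the library labelled 0 h replicate 1 the difference was -0.44. The call then depended on whether NBTII-FGFR1 2 h replicate 1 was also left out. Atp5mc3, one of the genes of the c subunit of the rotor ring, read 12.09 and 12.06 at 0 h and 11.62 and 11.65 at 48 h, and fell by 0.44 ± 0.13 (adjusted p = 0.0221). Atp5f1a, the alpha subunit, read 11.66 and 11.60 at 0 h and 11.28 and 11.32 at 48 h, and fell by 0.33 ± 0.09 (adjusted p = 0.019). The calls of Atp5mc3 and Atp5f1a were each lost without any one of the 4 arrays compared (adjusted p up to 0.121 and 0.124). Atp5f1b, the beta subunit that pairs with alpha in the catalytic head, differed by -0.08 ± 0.09, with 12.45 and 12.35 at 0 h and 12.35 and 12.29 at 48 h.

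The complex I assembly factors Ndufaf3 and Ndufaf4, whose proteins bind each other, moved apart at 48 h in NBTII-FGFR1. Ndufaf4 fell by 1.09 ± 0.22 from 0 h, 2.12-fold (adjusted p = 0.00264), while Ndufaf3, at 8.81 and 8.66 at 0 h and 9.28 and 9.25 at 48 h, rose by 0.53 ± 0.18 (adjusted p = 0.042). The Ndufaf3 call was lost in 8 of the 18 fits, those named for Sdhb (adjusted p up to 0.206).

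**Figure D2:**
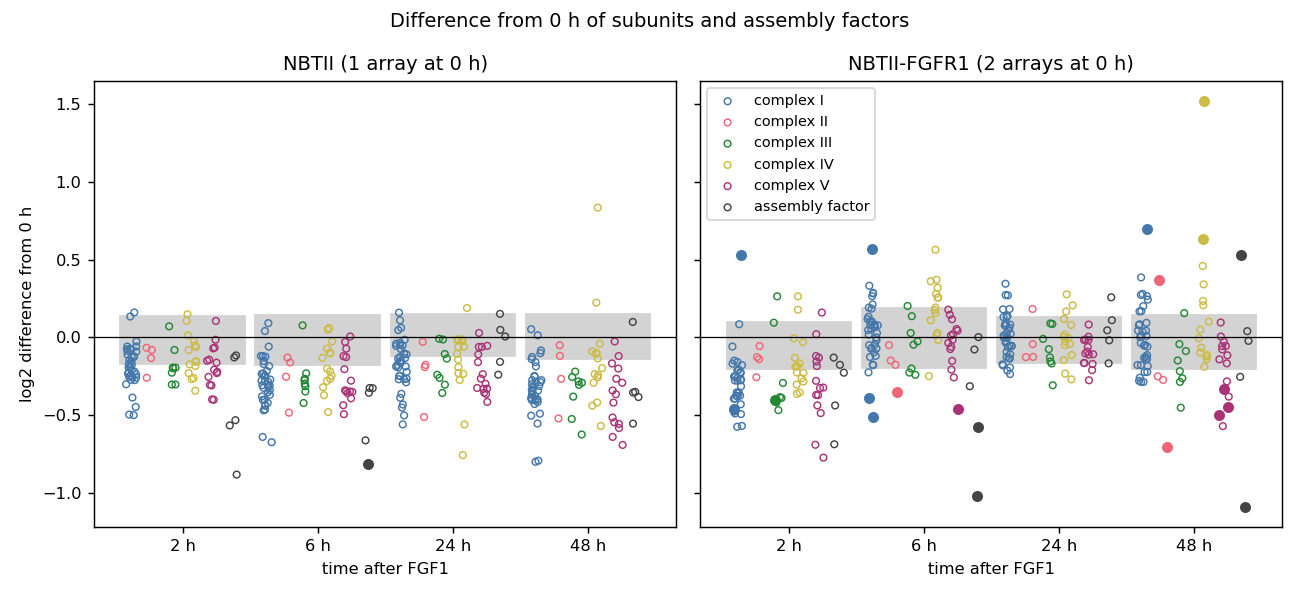
Log2 difference from 0 h of each gene in the common fit, by complex and time, NBTII on the left and NBTII-FGFR1 on the right; filled points passed an adjusted p of 0.05, open points did not, and the grey band spans the quartiles of all 15866 probe sets. Atp5if1 and the pseudogene are not drawn. In NBTII-FGFR1 at 48 h the filled points lie on both sides of 0, with Cox6a2 at 1.52 and Ndufaf4 at -1.09 as the outermost; in NBTII most points lie below 0 and 1, Ndufaf7 at 6 h, is filled.

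At 6 h in NBTII-FGFR1, 2 of the 85 genes were higher and 6 lower (9.41%), where 21.3% of all probe sets were called. The median difference was 0.02, as it was over all probe sets. The 2 that rose were Ndufa4l2 and the pseudogene Cox6c-ps1 (0.39 ± 0.11, adjusted p = 0.0202), whose probe set may share signal with Cox6c. The call of Cox6c-ps1 was lost without 0 h replicate 2 or 6 h replicate 1 (adjusted p up to 0.15). The 6 that fell were 2 assembly factors, 2 iron-sulfur subunits of complex I, the flavoprotein of complex II and the gamma subunit of complex V.

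Among these, Ndufaf4 had the largest fall. In NBTII-FGFR1 it read 9.50 and 9.27 at 0 h, 8.545 at 0.5 h, 9.34 and 8.56 at 2 h, 8.34 and 8.39 at 6 h, 9.33 and 9.10 at 24 h, and 8.15 and 8.44 at 48 h. Levels were thus high at 0 and 24 h and low at 6 and 48 h, and the single array of 0.5 h was also low. At 2 h the array that stands apart was the high one. That the arrays of the times compared did not overlap adds no support, since this was part of the rule for naming called genes. Ndufaf4 fell by 1.02 ± 0.22 from 0 to 6 h, 2.03-fold (adjusted p = 0.00446), was higher again at 24 h than at 6 h by 0.85 ± 0.22 (adjusted p = 0.0193), and fell by 0.92 ± 0.22 from 24 to 48 h (adjusted p = 0.0177). Without the library labelled 0 h replicate 1 the first of these differences was -0.91. Its call then depended on whether NBTII-FGFR1 2 h replicate 1 was also left out. The rise was lost without either array of 6 h or 24 h replicate 1 (adjusted p up to 0.138), and the second fall without 24 h replicate 1 or 48 h replicate 1 (up to 0.194).

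In NBTII, Ndufaf4 read 9.15 at 0 h, 9.08 at 0.5 h, 7.99 and 8.54 at 2 h, 8.79 in both arrays of 6 h, 8.80 and 9.18 at 24 h, and 8.625 and 8.56 at 48 h. Its lowest arrays were thus those of 2 h, and no difference passed the threshold in that line, though that from 0 to 2 h (-0.88) did without NBTII-FGFR1 2 h replicate 1 (adjusted p = 0.0296). From 2 to 6 h its change differed between the lines by -1.11 ± 0.32, which was not called (adjusted p = 0.128). Over both lines Ndufaf4 fell by 0.66 ± 0.16 from 24 to 48 h (adjusted p = 0.0146).

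Ndufaf7, a methyltransferase that modifies a core subunit of complex I, was low at 6 h in both lines. In NBTII-FGFR1 it read 7.49 and 7.60 at 0 h, 7.43 and 7.40 at 2 h, 7.14 and 6.79 at 6 h, and 7.69 and 7.49 at 24 h. In NBTII it read 7.56 at 0 h, 6.84 and 7.15 at 2 h, 6.49 and 7.01 at 6 h, and 7.33 and 7.32 at 24 h. It fell by 0.58 ± 0.16 from 0 to 6 h in NBTII-FGFR1 (adjusted p = 0.0196) and by 0.81 ± 0.20 in NBTII (adjusted p = 0.0267), and was higher at 24 h than at 6 h by 0.62 ± 0.16 (adjusted p = 0.019) and 0.57 ± 0.16 (adjusted p = 0.0428). Both NBTII calls were lost without NBTII 6 h replicate 1 (adjusted p = 0.19 and 0.436, differences of -0.55 and 0.31), and the later one in 9 of the 18 fits. Both NBTII-FGFR1 calls were lost without 6 h replicate 2 (adjusted p = 0.197 and 0.169), the fall also without either 0 h library and the rise also without 24 h replicate 1.

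Ndufs1, the largest iron-sulfur subunit of complex I, showed the same order of levels in NBTII-FGFR1, with 9.88 and 9.68 at 0 h, 9.97 and 9.48 at 2 h, 9.33 and 9.21 at 6 h, and 9.88 and 9.68 at 24 h. It fell by 0.51 ± 0.16 by 6 h (adjusted p = 0.0367) and was higher at 24 h than at 6 h by 0.51 ± 0.16 (adjusted p = 0.0494). The fall was lost without any one of the 4 arrays compared (adjusted p up to 0.23), and the rise in 14 of the 18 fits. Ndufv2, an iron-sulfur subunit of the NADH-oxidising module, read 11.26 and 11.25 at 0 h and 10.94 and 10.79 at 6 h, and fell by 0.39 ± 0.13 (adjusted p = 0.0383), a call lost without any one of the 4 arrays compared or of the NBTII-FGFR1 arrays of 48 h (adjusted p up to 0.214). Sdha, at 8.52 and 8.39 at 0 h and 8.05 and 8.16 at 6 h, fell by 0.35 ± 0.10 (adjusted p = 0.025), and Atp5f1c fell by 0.46 ± 0.11 (adjusted p = 0.00953). These last calls were both lost without the library labelled 0 h replicate 1 (adjusted p = 0.182 and 0.0882) and without 6 h replicate 1, and that of Sdha also without 6 h replicate 2. With both libraries that stand apart left out, 3 of the 8 genes called at 6 h were still called, beside 1 other.

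**Figure D3:**
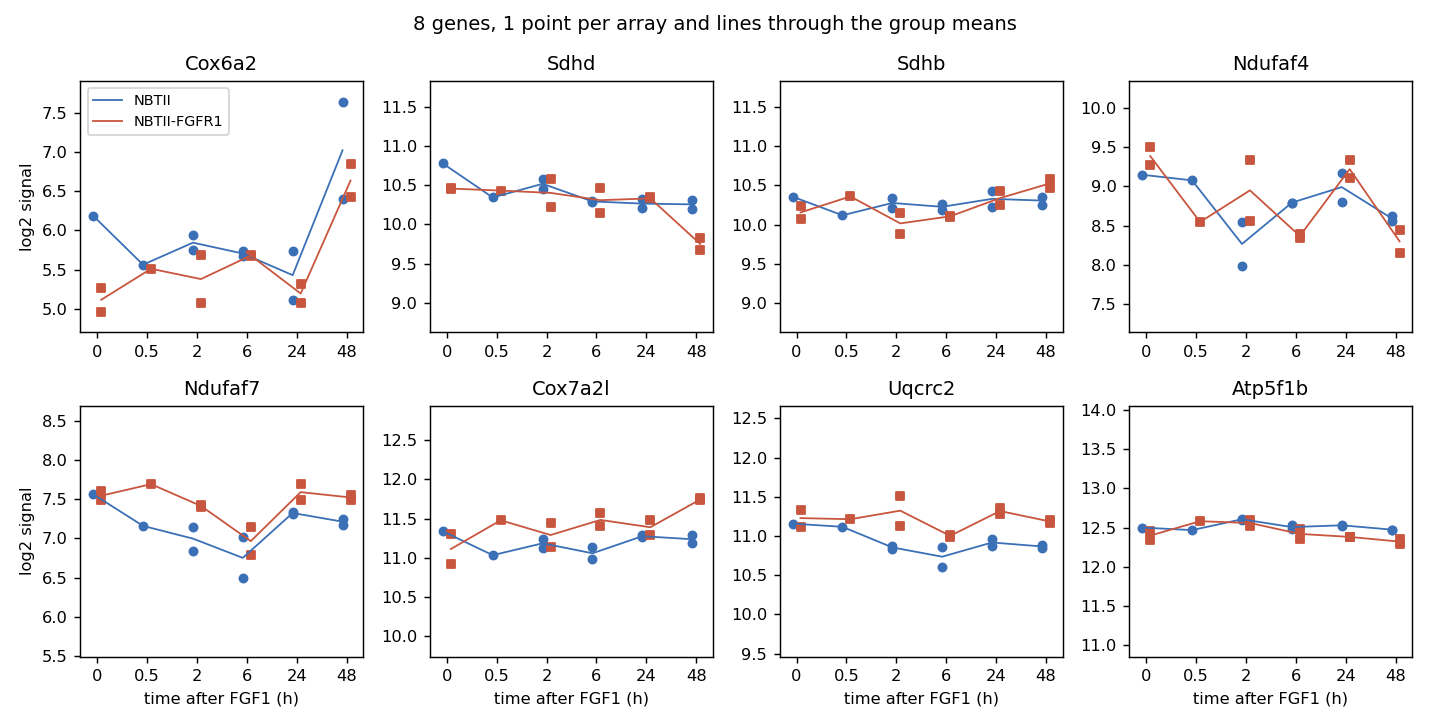
Log2 signal against time after FGF1 for 8 genes, 1 point per array, with lines through the group means; NBTII in blue, NBTII-FGFR1 in red, each panel spanning the same number of log2 units and the time axis not to scale. Cox6a2 is highest at 48 h in both lines, Sdhd falls at 48 h in NBTII-FGFR1, Ndufaf4 falls at 6 and 48 h in that line, and Atp5f1b stays between 12.3 and 12.6.

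At 24 h in NBTII-FGFR1 limma called 0 of the 85 genes against 0 h, where 6.3% of all probe sets were called, and 1 gene had an unadjusted p under 0.05. All 85 intervals stayed within a log2 change of 1. In the step from 6 to 24 h in NBTII-FGFR1, Ndufaf4, Ndufaf7 and Ndufs1 were higher and Cox6c-ps1 lower (-0.46 ± 0.11, adjusted p = 0.012), 4 of 85 against 14.8% of all probe sets. In that step 6 of the 9 epithelial markers were lower (median -0.72), and their part was not tested either. From 24 to 48 h the calls were Cox6a2 higher and Ndufaf4 and Sdhd lower, 3 of 85 against 9.57%. In the mean of both lines over that step Ndufs3, a core subunit of complex I, also fell (-0.35 ± 0.10, adjusted p = 0.0417).

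At 2 h the description rests on the pair of NBTII-FGFR1 arrays that disagree. Of the 85 genes, 77 read lower in replicate 1 than in replicate 2, with a median difference of -0.76, whereas all probe sets had a median of 0.01 and the other 8 pairs of arrays had medians of these genes between -0.16 and 0.08. Atp5f1e, the epsilon subunit of the ATP synthase, read 10.6 in replicate 1, 11.8 in replicate 2 and 11.24 to 12.04 in the other 19 arrays. The gap was not even across the genes. Its median was -0.82 in complex I, -0.28 in complex II, -0.525 in complex III, -0.66 in complex IV and -0.76 in complex V. Over 17 catalytic and core subunits it was -0.30, with 23.5% of them below -0.5. Over the 61 other subunits it was -0.84, with 80.3% below -0.5. The 17 were Ndufs1, Ndufs3, Ndufs7, Ndufs8, Ndufv1, Ndufv2, Sdha, Sdhb, Sdhc, Sdhd, Cyc1, Uqcrfs1, Atp5f1a, Atp5f1b, Atp5f1c, Atp5f1d and Atp5f1e. This list was not among those fixed beforehand, holds no gene of complex IV and leaves out Uqcrc2.

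A few members ran the other way. Uqcrc2, a core protein of complex III, read 11.51 in replicate 1 against 11.13 in replicate 2, Ndufs1 9.97 against 9.48, and Ndufaf4 9.34 against 8.56. Outside these genes the same gap had a median of -0.475 over 71 mitochondrial ribosomal proteins, -0.28 over 23 protein import genes, -0.20 over 47 cytosolic ribosomal proteins and -0.20 over 34 proteasome subunits. Differences between the 3′ and 5′ probe sets of the control genes, a measure of RNA integrity, lay within the range of the other arrays in replicate 1 (-0.15 for GAPDH, 0.49 for beta-actin and 0.62 for hexokinase), as did its epithelial marker mean (8.52). The part of these and other properties of this library in the gap was not tested.

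**Figure D4:**
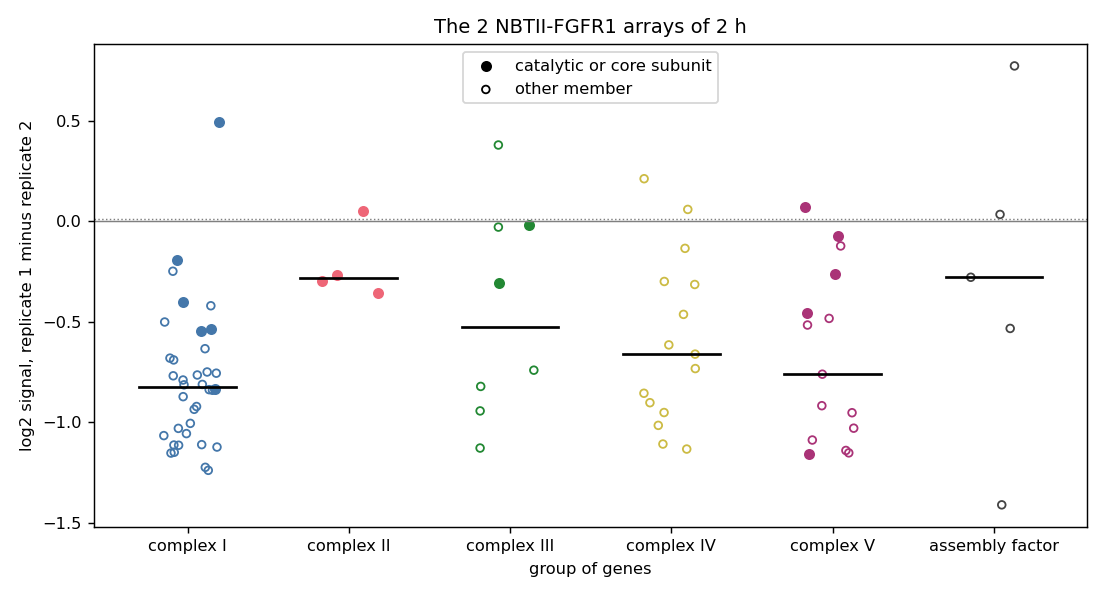
Log2 signal of NBTII-FGFR1 2 h replicate 1 minus replicate 2, 1 point per gene, by complex; filled points are catalytic or core subunits, black bars the group medians, and the dotted line the median of all probe sets (0.01). Atp5if1 and the pseudogene are not drawn. The medians run from -0.28 in complex II and the assembly factors to -0.82 in complex I.

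With this array in the fit, 1 gene was higher and 2 lower in NBTII-FGFR1 at 2 h than at 0 h, against 9.35% of all probe sets. Of the 85 differences, 76 were below 0, against 60.7% of those of all probe sets. The 2 that fell were Ndufv2 (-0.46 ± 0.13, adjusted p = 0.0336) and Cyc1, cytochrome c1 of complex III (-0.40 ± 0.12, adjusted p = 0.047). Without that array the median difference turned from -0.26 to 0.07, both calls were lost (adjusted p = 0.24 and 0.279; that of Ndufv2 was also lost without either 0 h array, and that of Cyc1 in 15 of the 18 fits), and Ndufa4l2 (0.78 ± 0.15, adjusted p = 0.00596) and Ndufaf4 (-0.825 ± 0.21, adjusted p = 0.0283) were called. In the step from 2 to 6 h, Ndufv3, an accessory subunit of complex I (0.545 ± 0.17, adjusted p = 0.0405), Cox5a (0.46 ± 0.15, adjusted p = 0.0435) and Cox6c-ps1 (0.38 ± 0.11, adjusted p = 0.0281) were higher, 3 of 85 against 17% of all probe sets, and 0 of the 85 were called without it. The Cox5a probe set called here averaged 5.63, while another that also carries a second symbol differed by 0.22 and was not called (adjusted p = 0.397).

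The array also set the error of these genes throughout the fit. The NBTII-FGFR1 2 h pair held a median of 71.18% of a gene's residual sum of squares over the 85 genes, against 10.19% over all probe sets, and the median SE of a 2-array difference was 0.19 over the 85 genes, against 0.14 over all probe sets. Without it that SE was 0.12 and the calls in NBTII-FGFR1 at 48 h went from 10 to 17, all of the 10 among them. This is 20.0% of the 85 against 24.3% of all probe sets in that fit, closer than the 11.8% against 21.4% with the array in. The 7 added were Cox6a1 (0.46), Cox5b (0.34), Ndufa1 (0.39) and Atp5if1 (0.54), which were higher, and Atp5mpl (-0.57), Uqcrh (-0.45) and Atp5me (-0.38), which were lower. At 6 h the calls went from 8 to 13, all of the 8 among them, or 15.3% against 24.1%. Those added were Atp5if1 (0.62 ± 0.16), which limits ATP hydrolysis by the synthase, Cox6c (0.36), Ndufa1 (0.33), Ndufs6 (0.29) and Cox6a1 (0.28), and all 5 were higher.

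In NBTII cells, Ndufaf7 at 6 h was the single call against 0 h, 1 of 85 against 5.9% of all probe sets. At 2, 24 and 48 h limma called 0 of the 85, against 2.94%, 0.939% and 0.908% of all probe sets, with 4, 3 and 12 at an unadjusted p under 0.05. The differences nevertheless leaned one way: 77, 79, 76 and 80 of the 85 were below 0 at 2, 6, 24 and 48 h. Of all probe sets, 52.5%, 52.9%, 45.6% and 48.1% were below 0. The medians of the 85 were -0.17, -0.28, -0.16 and -0.305. All 4 comparisons share the single NBTII array of 0 h, which was the highest of all arrays for 33 of the 85 genes, against 5.98% of all probe sets. The spread of that array was not measured. The same array enters the 0.5 h difference over both lines, where limma called 0 of the 85, against 2.2% of all probe sets, with 11 at an unadjusted p under 0.05 and a median of -0.25. Without NBTII-FGFR1 2 h replicate 1 that count was 8, all lower (9.41% against 4.19% of all probe sets), among them Atp5me (-0.60 ± 0.12, adjusted p = 0.0103) and Ndufaf8 (-0.75 ± 0.16, adjusted p = 0.0159).

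The steps within NBTII do not use the 0 h array. From 2 to 6 h and from 24 to 48 h limma called 0 of the 85, against 3.3% and 0.063% of all probe sets, with 2 and 5 at an unadjusted p under 0.05. From 6 to 24 h, Ndufaf7 was the single call, 1 of 85 against 8.3%. Without NBTII-FGFR1 2 h replicate 1, Ndufab1, the acyl carrier protein of complex I (0.54 ± 0.11, adjusted p = 0.00801), and Ndufaf8 (0.67 ± 0.17, adjusted p = 0.0199) joined it in that step.

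Between the lines, 2 genes were higher and 2 lower in NBTII-FGFR1 over 24 and 48 h, 4 of 85 against 11.4% of all probe sets. Ndufc2, an accessory subunit in the membrane arm of complex I, read 11.05, 11.12, 10.82 and 10.90 in NBTII-FGFR1 and 10.42, 10.53, 10.28 and 10.16 in NBTII, 0.62 ± 0.17 apart (adjusted p = 0.0289). At 0 h its NBTII-FGFR1 arrays read 10.48 (replicate 1, the library against its label) and 11.15, and it read 10.09 to 10.62 in all NBTII arrays. Uqcrc2 read 11.36, 11.28, 11.16 and 11.21 in NBTII-FGFR1 and 10.88, 10.96, 10.88 and 10.85 in NBTII over those times, 0.36 ± 0.09 apart (adjusted p = 0.0219). In both genes all 4 NBTII-FGFR1 arrays lay above all 4 NBTII arrays. This adds no support, since non-overlapping arrays were part of the rule for naming called genes.

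The 2 lower ones were Ndufv1, the subunit that binds NADH (-0.29 ± 0.09, adjusted p = 0.0467), and Atp5f1a (-0.21 ± 0.07, adjusted p = 0.0477). The Ndufc2 call was lost without any one of the 8 arrays of 24 and 48 h (adjusted p up to 0.0922), that of Uqcrc2 without any of 7 of them (up to 0.0715), and those of Ndufv1 and Atp5f1a in 9 and 14 of the 18 fits. Without NBTII-FGFR1 2 h replicate 1, 12 genes were called, including these 4 (14.1% against 14.4% of all probe sets), and Ndufc2 was also higher over 2 and 6 h (0.71 ± 0.14, adjusted p = 0.0139).

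Over 2 and 6 h, Uqcrc2 was higher (0.37 ± 0.09, adjusted p = 0.0403) and Atp5me, a small subunit of the membrane part of ATP synthase, lower (-0.68 ± 0.17, adjusted p = 0.0366) in NBTII-FGFR1, 2 of 85 against 3.7% of all probe sets. Atp5me read 7.35, 8.44, 8.49 and 8.72 in NBTII-FGFR1 and 8.98, 8.99, 8.85 and 8.88 in NBTII, and 7.35 is the array that stands apart. Without it the Atp5me difference was -0.40 and still called (adjusted p = 0.0396), and that of Uqcrc2 was 0.27 and not called (adjusted p = 0.115). These calls were lost in 12 and 14 of the 18 fits. A second Atp5me probe set differed by 0.07 and was not called (adjusted p = 0.726).

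The line difference did not change detectably between the early and the late times: limma called 0 of the 85, against 0.164% of all probe sets, with 1 at an unadjusted p under 0.05. Contrasts that set the lines' changes from 0 h against each other, added after the values had been seen, gave 0 calls among the 85 at 2, 6, 24 and 48 h, against 0%, 0.403%, 0.0063% and 1.13% of all probe sets, with 0, 4, 0 and 7 at an unadjusted p under 0.05. The steps from 2 to 6 h, 6 to 24 h and 24 to 48 h also gave 0, against 0.132%, 0.0063% and 0.0126%, with 13, 2 and 1. None of the changes described for one line was therefore shown to differ from that of the other.

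Other lists of mitochondrial genes are set beside these in NBTII-FGFR1, counted over all their measured genes. Of 11 assembly factors of complexes III and IV, 1 was higher and 5 lower at 6 h (54.5%, against 21.3% of all probe sets), and 4 were higher and 0 lower at 24 h against 6 h (36.4%, against 14.8%). Bcs1l, which inserts the iron-sulfur protein into complex III, fell by 1.30 ± 0.14 by 6 h (adjusted p = 2.22e-05), was higher at 24 h than at 6 h by 1.20 ± 0.14 (adjusted p = 0.00011), and fell by 0.67 ± 0.14 from 24 to 48 h (adjusted p = 0.00619). Cox15, an enzyme of heme a synthesis, fell by 0.86 ± 0.17, was higher by 0.94 ± 0.17 and fell by 0.68 ± 0.17 in the same intervals. Lrpprc, which stabilises mitochondrial mRNAs, fell by 0.92 ± 0.17 by 6 h and was higher by 0.88 ± 0.17 at 24 h. Surf1, a complex IV assembly factor, went the other way and rose by 0.60 ± 0.19 at 6 h and 1.09 ± 0.19 at 48 h. Cox17 also rose at 48 h (0.98 ± 0.27, adjusted p = 0.0167). Bcs1l moved in NBTII too, with -0.66 ± 0.17 from 0 to 6 h (adjusted p = 0.0301) and 0.62 ± 0.14 from 6 to 24 h (adjusted p = 0.0118).

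Of 71 mitochondrial ribosomal proteins, 0 were higher and 20 lower at 6 h, 21 higher and 0 lower from 6 to 24 h, and 0 higher and 14 lower from 24 to 48 h, with medians of -0.24, 0.37 and -0.28. These are 28.2%, 29.6% and 19.7% of the list, against 21.3%, 14.8% and 9.57% of all probe sets, so the share at 6 h lies near that of all probe sets. The medians of the 85 genes in these intervals were 0.02, -0.075 and -0.05. Of 23 protein import genes, 6 fell by 6 h, 6 were higher at 24 h than at 6 h, and 8 fell from 24 to 48 h, or 26.1%, 26.1% and 34.8% against the same shares. Of 11 citric acid cycle genes, 1 fell at 6 h (9.09% against 21.3%) and 3 at 48 h (27.3% against 21.4%), among them the citrate synthase gene Cs (-0.60 ± 0.13, adjusted p = 0.00375). Of 8 genes of pyruvate dehydrogenase and its kinases, 1 fell at 6 h (12.5% against 21.3%): Pdk1, a kinase that inhibits the enzyme (-1.07 ± 0.17, adjusted p = 0.000466), which also fell in NBTII (-0.96 ± 0.21, adjusted p = 0.0136). Of 9 carriers and related proteins, 1 was higher and 2 lower at 48 h (33.3% against 21.4%), the higher being Etfa, a subunit of the electron transfer flavoprotein (0.60 ± 0.12, adjusted p = 0.00192). Of 7 regulators of mitochondrial biogenesis, 1 rose and 1 fell at 6 h (28.6% against 21.3%): Esrra, an estrogen-related receptor (0.45 ± 0.14, adjusted p = 0.0329), and Tfam, the packaging and transcription factor of mitochondrial DNA (-0.55 ± 0.13, adjusted p = 0.00658).

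A probe set of Ndufa10, left out above because it also carries the symbol Ndufa10l1, fell by 0.67 ± 0.13 by 6 h in NBTII-FGFR1 (adjusted p = 0.00162), was higher at 24 h than at 6 h by 0.47 ± 0.13 (adjusted p = 0.022) and was 0.44 ± 0.13 lower at 48 h than at 0 h (adjusted p = 0.0207). It was named after its values were seen.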

How the data were processed

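RNA of NBTII and NBTII-FGFR1 cells was read on 21 Affymetrix arrays. The authors deposited log2 signals from RMA, as the submitters' processing notes name it, with a version not given in the sources used here. These were taken unchanged. Without 57 control probe sets, 15866 were tested, with no filter on low values. A limma model (3.58.1, R 4.3.3) with 1 mean per group had 9 residual and 5.678 prior degrees of freedom, and a lone array was assumed to spread like the paired ones. Adjustment was by Benjamini-Hochberg over all probe sets in each comparison. Named were fixed catalytic subunits and tissue isoforms, per comparison up to 3 higher and 3 lower called genes with non-overlapping arrays, and genes below the lower quartile; other genes are named where a count or a sentence singles them out, after their values were seen. The members, lists and tests were chosen with earlier results of these data known. On simulated data a planted log2 change of 1 was recovered in 89% of probe sets for NBTII-FGFR1 and 74% for NBTII at 6 h against 0 h. A change of 0.5 was recovered in 24% and 7%. The probe sets were drawn at random from all, with noise that held no array standing apart. Recovery for the 85 genes was not measured. Their median SE at 6 h against 0 h in NBTII-FGFR1 was 0.19, against 0.14 over all probe sets. Gene names are those of the platform annotation, promoters those of RefSeq (GRCr8). Alternatives are given in the closing section.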

Additional observations from a re-analysis of the deposited data

How the results depend on the processing

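No called gene turned its direction under the alternatives run, but medians over the 85 genes did. Without NBTII-FGFR1 2 h replicate 1 the median turned from -0.262 to 0.067 in NBTII-FGFR1 at 2 h, from 0.341 to -0.065 from 2 to 6 h and from 0.129 to -0.035 for the change of the line difference, and with both libraries out the first was 0.113 and the others the same. Medians near 0 also turned: at 6 h in NBTII-FGFR1 (0.022, but -0.007 without 0 h replicate 2 and -0.083 without 6 h replicate 2), from 6 to 24 h (-0.075, but 0.021 without 6 h replicate 2) and at 24 h (-0.025, but 0.010 without 24 h replicate 1). The number of the 85 genes called was the most open to change. With array weights it was 0 in NBTII-FGFR1 at 2 h (3 in the report), 19 at 48 h (10), 0 from 2 to 6 h (3) and 7 from 24 to 48 h (3), 3 in NBTII at 6 h (1), 2 at 48 h (0), 3 from 6 to 24 h (1) and 1 from 24 to 48 h (0), and 0 over 2 and 6 h (2) and 17 over 24 and 48 h (4) between the lines. With both libraries that stand apart left out, an alternative chosen after seeing the data, it was 1 in NBTII-FGFR1 at 2 h, 4 at 6 h and 0 from 2 to 6 h, 1, 3 and 1 in NBTII at 2, 6 and 48 h, 2 from 6 to 24 h, 2 at 0.5 h, and 4 and 11 between the lines early and late. With quantile normalization repeated it was 5 in NBTII-FGFR1 at 2 h. With the mean of a gene's probe sets it was 5 there, 1 in NBTII at 2 h and 1 between the lines early. With eBayes trend and robust it was 0 in NBTII from 6 to 24 h. The causes of these shifts were not tested.

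Leaving out 1 array at a time gave 0 to 55 calls in NBTII-FGFR1 at 2 h, 1 to 13 at 6 h, 0 at 24 h, 4 to 17 at 48 h, 0 to 58 from 2 to 6 h, 0 to 5 from 6 to 24 h and 0 to 4 from 24 to 48 h. It gave 0 to 1, 0 to 4, 0 and 0 to 2 in NBTII at 2, 6, 24 and 48 h, 0, 0 to 3 and 0 to 1 in its steps, 0 to 8 at 0.5 h, 0 to 48 and 0 to 12 between the lines early and late, and 0 to 5 for the change of the line difference. The 55, 58 and 48 arose without NBTII-FGFR1 2 h replicate 2, which leaves the array that stands apart alone at 2 h.

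With the replicate block, the count from 2 to 6 h in NBTII-FGFR1 was 7, and no other count moved by over 1.5 times. The correlation of same-numbered arrays' deviations ran from -0.131 to 0.348 over 36 pairs of groups, and 15 of the 36 were above 0.1. Since not every pair exceeded 0.1, the numbers were not taken to pair the samples.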
